A study of Mus musculus with 136 samples.

Results

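Cdx1, Cdx2, Cdx4, T (brachyury), Nkx1-2, Evx1 and Sp5 are transcription factors of the tailbud, the growing posterior end of the embryo. They were chosen by gene symbol and make up 7 of the 47643 genes in the count table, of which 31735 had a count in at least 1 library. RNA of the whole embryo and, separately, of its visceral yolk sac was counted for 66 concepti of the NOD mouse strain, in which females become diabetic spontaneously. Concepti were collected at E8.5 from dams on the same chow diet, mated to normoglycemic males. The normal group also consists of NOD animals, from 10 litters whose dams had a blood glucose between 105 and 164 mg/dl at euthanasia. The diabetic group came from 12 litters whose dams measured between 423 and 595 mg/dl, with 1 litter recorded only as exceeding this range. At 5 or 6 somite pairs there were 17 embryos of 10 normal litters and 17 of 9 diabetic litters. With 7 to 9 somite pairs there were 16 of 7 normal and 16 of 6 diabetic litters, and litter D24M15 gave 7 of the last 16. Each library holds 1 embryo or 1 yolk sac, so embryos are separate animals, but littermates share a dam.

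The tailbud holds progenitors that add tissue to the body axis from head to tail, some of which can give both spinal cord and somites. Wnt and FGF signals maintain these cells, and T, Sp5 and the Cdx genes are known targets of Wnt signaling there. Embryos that lack Cdx function or T stop lengthening early, and Cdx factors also activate posterior Hox genes. E8.5 is the period in which the axis extends, shortly before and during turning of the embryo.

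Libraries were made from the 3′ end of each transcript and copies of a molecule were counted once by their unique molecular identifier (UMI), so a transcript gives 1 tag whatever its length, and levels of different genes are compared below without correction for length. Total UMI counts per embryo library ran from 1330731 to 5658850, and repeat libraries of 2 embryos gave member levels of 0.952 to 1.16 times the originals. Repeats of their yolk sacs gave Cdx2 at 1.61 (D24M15G, 17 and 29 counts) and 1.01 (N28M06C) times the originals. Levels in embryos are given as normalized counts, the UMI count divided by the size factor of the library over all 66 embryos. A member was called changed in a comparison where the adjusted p of edgeR's quasi-likelihood test, over all genes tested, was below 0.05.

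In the reference annotation (GENCODE M21, GRCm38), Sp5 lies on the forward strand of chr2:70474923-70477729, T on the forward strand of chr17:8434423-8442496, and Cdx4 on the forward strand of chrX:103321398-103330592. Cdx2 is read from the reverse strand of chr5:147300805-147307270. Nkx1-2, on the reverse strand of chr7:132594878-132599637, lies inside the span of the Fgfr2 gene, which is read from the same strand. Evx1, on the forward strand of chr6:52313498-52318378, overlaps its antisense gene Evx1os. For 6 members, windows of 300 bases, from 250 before the start site to 50 after it, were taken from RefSeq (GRCm38.p6). They were searched on both strands for the word CTTTGAA and its variants, namely CTTTGAT, the further variant CTTTGTA and the further variant CTTTGTT, which match the core bound by the Wnt effectors TCF and LEF. The Cdx word TTTATGG and the T-box word GGTGTGA were searched likewise. Of these 6, Sp5 and T are the members with a TCF/LEF word, and the 250 bases before their start sites, which hold every word found, are printed 5′ to 3′ on the gene's strand with the words found in capitals.

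Sp5, chr2:70474673-70474922: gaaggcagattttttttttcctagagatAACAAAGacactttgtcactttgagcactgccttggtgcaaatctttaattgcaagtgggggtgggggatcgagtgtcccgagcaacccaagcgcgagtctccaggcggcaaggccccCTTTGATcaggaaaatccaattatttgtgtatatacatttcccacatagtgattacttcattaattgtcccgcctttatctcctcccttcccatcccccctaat

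T, chr17:8434173-8434422: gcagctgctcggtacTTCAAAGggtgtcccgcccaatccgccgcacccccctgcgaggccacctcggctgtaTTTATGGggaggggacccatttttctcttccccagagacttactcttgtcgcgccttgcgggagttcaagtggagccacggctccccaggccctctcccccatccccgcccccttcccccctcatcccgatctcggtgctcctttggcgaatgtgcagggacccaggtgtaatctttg

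The TCF/LEF words of Sp5 start 222 and 104 bases before the start site. In T the TCF/LEF word, on the opposite strand, starts at 235 bases before it and the Cdx word at 178 bases. Among 32851 windows of the same 300 bases, 16.9% hold a TCF/LEF word, 2.75% the Cdx word and 3.98% the T-box word, which none of the 6 windows held. These matches describe the letters only.

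The embryo D24M15J, from a diabetic pregnancy with 8 somite pairs, stood apart from the other 65. Its library held 2926035 UMI counts, within the range of the others, yet it gave 8 counts for Cdx1, 3 for Cdx2, 0 for Cdx4, 13 for T, 9 for Nkx1-2 and 10 for Evx1. A count of 0 at this depth allows up to 1.03 counts per 1000000 (CPM) for Cdx4, while the other embryos lay between 28.9 and 215 CPM. It was the lowest of the 66 embryos for these 6 genes. Sp5, at 124 counts or 42.4 CPM, was inside the range of the others, from 24.8 to 103 CPM, and the 11th lowest. The 12 listed posterior Hox genes summed to 8.20 CPM in this embryo and to 146 CPM or more in every other. The 9 presomitic genes summed to 76.2 CPM, near the lower end of the other embryos (73.7 to 261.5 CPM). Among them Tbx6 was at 0 and Hes7 at 0.684 CPM, the lowest of all embryos, while Lfng, at 63.6 CPM, was the 13th highest and Dll1, at 9.57 CPM, inside the range. By contrast Otx2, a forebrain and midbrain factor, was the highest of all embryos at 198 CPM against 66.7 to 177 CPM, and Six3 was at 196 CPM against 16.2 to 141 CPM. Summed forebrain and midbrain markers came to 569 CPM, above the 142 to 408 CPM of the others, and summed heart markers to 1310 CPM, above 60.0 to 1285 CPM. Hindbrain markers (83.4 CPM) and somite markers (87.8 CPM) were inside the range of the other embryos. Its own yolk sac, by normalized count, was the highest of the 16 late diabetic yolk sacs for Cdx1 (13 UMI counts), Cdx2 (41), Cdx4 (5), T (3) and Sp5 (10), and not for Nkx1-2 (1) or Evx1 (4). The forebrain, hindbrain, heart and somite lists were chosen after these values had been seen. Which part of the conceptus this library held was not tested, and fitted differences of the members that use the late diabetic group are given with and without it.

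**Figure D1:**
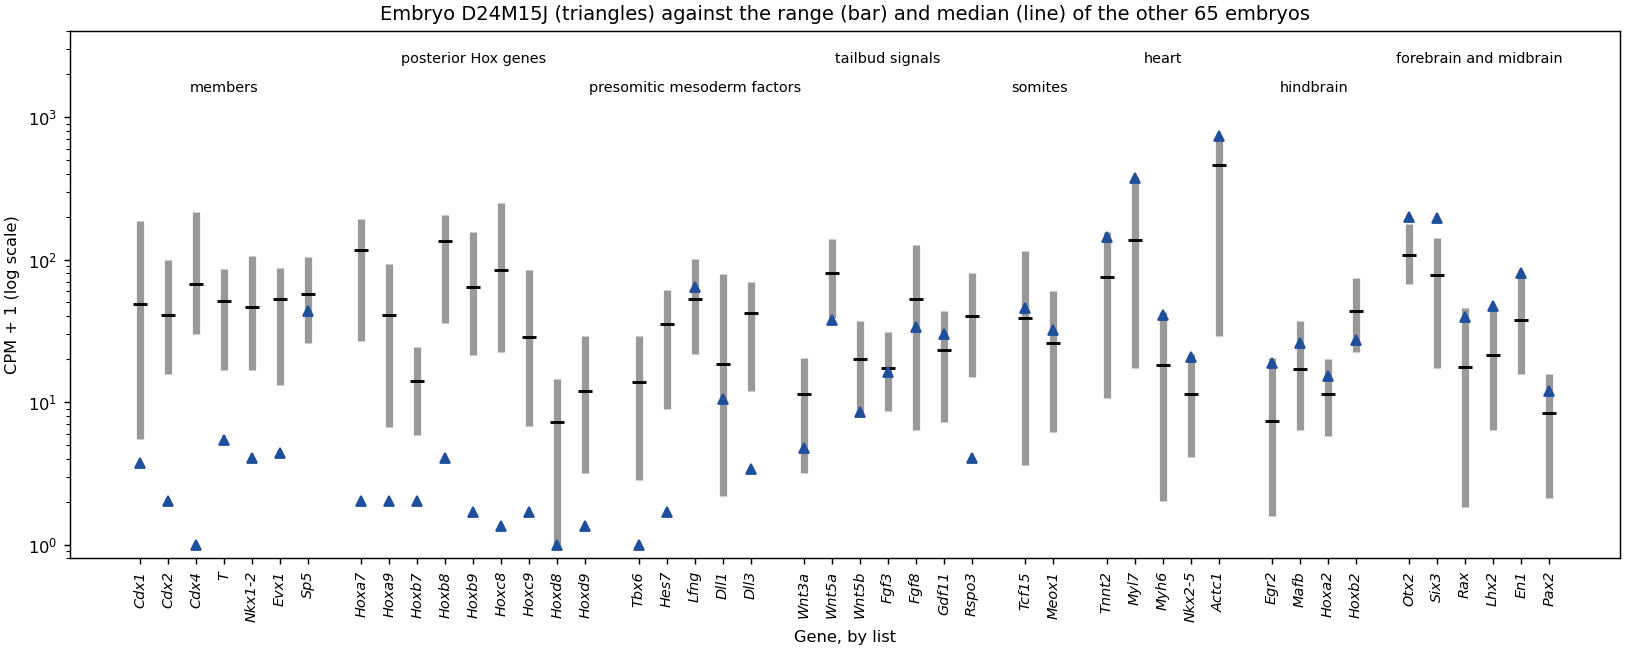
CPM (plus 1, log scale) of member genes and marker lists in embryo D24M15J (triangles), with the range (bar) and median (line) of the other 65 embryos. The triangle lies below the range for 6 members and the posterior Hox genes, inside it for Sp5, and above it for Otx2 and Six3.

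Across the embryos, the 7 genes did not share 1 course over the somite stages. A negative slope per somite pair was called for Cdx1, Sp5 and Nkx1-2, while T, Cdx2, Cdx4 and Evx1 did not pass the test. Means did not fall at every step. Those of Nkx1-2 in normal pregnancies were 112, 116, 121, 95.2 and 84.6 at 5, 6, 7, 8 and 9 somite pairs. The fitted slope over all embryos, with maternal condition in the model, was −0.40 log2 units per somite pair for Cdx1 (SE 0.06, adjusted p = 1.31e-06), −0.22 for Nkx1-2 (SE 0.05, adjusted p = 0.000615) and −0.21 for Sp5 (SE 0.03, adjusted p = 9.8e-08). Of all 11304 genes tested, 12.9% had a slope called lower. Without embryo D24M15J the slopes were −0.38, −0.20 and −0.20. Cdx4 (−0.13), Evx1 (−0.11), Cdx2 (−0.10) and T (−0.04) had negative slopes with adjusted p between 0.0864 and 0.478, and without D24M15J slopes of −0.11, −0.09, −0.08 and −0.03, in the same order. Evx1 was called without litter N28M06 (−0.12, adjusted p = 0.0476). Levels are relative to all RNA of the whole embryo. A smaller share of tailbud cells in the embryo and less of these transcripts per cell therefore cannot be told apart.

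**Figure D2:**
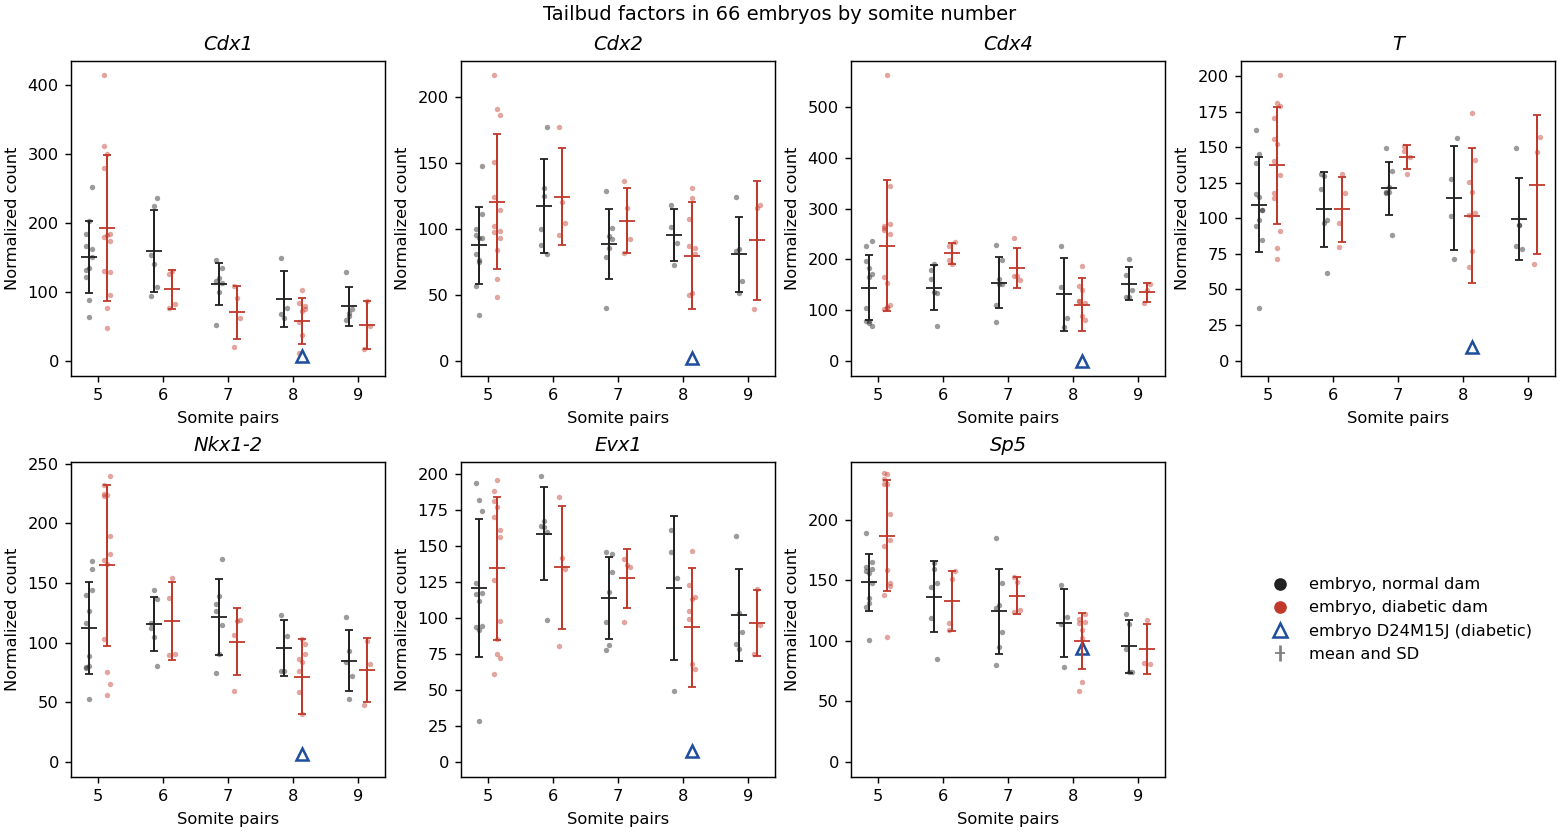
Normalized counts of each member against the number of somite pairs in 66 embryos, with a point per embryo, the mean and SD at each somite number, normal and diabetic pregnancies in separate colors, and a triangle for embryo D24M15J, which the means include. Cdx1 means descend from 192 at 5 to 51.0 at 9 somite pairs in diabetic pregnancies, and T means stay between 99.7 and 143 in both conditions.

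Cdx1, a Wnt and retinoic acid target that patterns the vertebrae, changed most with stage. At 5 or 6 somite pairs, normalized counts ran from 63.5 over a median of 150.1 to 251 in normal embryos. In diabetic embryos of that stage they ran from 48.0 over 130.1 to 414. These ranges overlapped widely, although 4 of the 17 diabetic embryos were above the highest normal one, and the estimated difference of 0.15 log2 units (SE 0.22, adjusted p = 0.728) did not pass the test. At 7 to 9 somite pairs the normal embryos ran from 51.1 over 88.3 to 149. The diabetic embryos ran from 6.08 over 67.0 to 108, with 6 of 16 below the lowest normal embryo and 13 of 16 below the normal median. Without D24M15J they ran from 10.6 over 71.5 to 108, with 5 of 15 below the lowest normal embryo and 12 below the normal median. The late difference between diabetic and normal embryos was −0.67 (SE 0.25, 95% interval −1.17 to −0.17), with an adjusted p of 0.0793 that missed the threshold, as it did without embryo D24M15J (−0.57, adjusted p = 0.0831). It was called without litter D23M26 (−0.75, adjusted p = 0.0497) and with the number that opens the library titles as a covariate (−0.75, adjusted p = 0.0478). With that covariate more of all genes were called too, as given at the end. Among embryos of title number 28 alone it was −0.77 (adjusted p = 0.0766). With litters as the unit, 4 of the 6 diabetic litter means were below the lowest normal litter mean, and the difference of −0.85 had p = 0.0233 in the exact permutation test and 0.298 adjusted over 14 such tests. Without D24M15J the litter difference was −0.77 with an exact permutation p of 0.0326.

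From the earlier to the later stage Cdx1 fell in normal embryos by 0.69 on the log2 scale (SE 0.24, adjusted p = 0.0412) and changed by −1.497 in diabetic embryos (SE 0.25, adjusted p = 6.38e-06), or by −1.40 without D24M15J. The call in normal embryos was lost with DESeq2 (adjusted p = 0.0538), in the fit that took litter as a random block (0.0533) and when low counts were not filtered (0.0715). Mean normalized counts at 5, 6, 7, 8 and 9 somite pairs were 150.5, 159, 111, 88.9 and 79.0 in normal pregnancies. These came from 11, 6, 7, 4 and 5 embryos. In diabetic pregnancies the means were 192, 104, 70.5, 58.0 (with D24M15J) and 51.0, from 13, 4, 4, 9 and 3 embryos. Diabetic means were thus below the normal ones from 6 somite pairs on and above them at 5. The interaction of stage and condition, −0.81 (SE 0.34, adjusted p = 0.111), did not pass the test, nor did it without D24M15J (−0.72, adjusted p = 0.131).

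Nkx1-2, a homeobox gene of the progenitors that give spinal cord and somites, also fell with stage, and here the fall was called in diabetic embryos. Early normal embryos ran from 52.4 over 116 to 168 normalized counts and early diabetic embryos from 55.7 over 166 to 239.6. In the diabetic group 8 of 17 embryos were above the highest normal one, although the lowest values of both groups were alike. Late normal embryos ran from 52.7 over 99.4 to 170.4, and late diabetic embryos from 6.84 over 84.7 to 119. None of these 16 exceeded the highest normal embryo and 3 were below the lowest. Without D24M15J the lowest late diabetic value was 39.6, and 2 embryos were below the lowest normal one. The condition difference was 0.43 early (SE 0.18, adjusted p = 0.165) and −0.38 late (SE 0.20, adjusted p = 0.21), and −0.28 late without D24M15J (adjusted p = 0.204). From early to late the gene fell by 0.93 in diabetic embryos (SE 0.20, adjusted p = 0.000227) and by 0.84 without D24M15J. The normal estimate was −0.14 (adjusted p = 0.664). The difference of these stage effects was −0.79 (SE 0.27) with an adjusted p of 0.0547, and −0.70 with 0.0541 without D24M15J. It passed with DESeq2 (−0.81, adjusted p = 0.0443) and when litter D23M26 (−0.83, 0.0458), D28M37 (−0.91, 0.0175), N23M31 (−0.80, 0.0470) or N28M07 (−0.92, 0.0391) was left out. Fgfr2, whose span contains Nkx1-2, was also called lower at the later stage in diabetic embryos (−0.41), and its part in the Nkx1-2 counts was not tested.

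Sp5, a zinc finger factor and direct Wnt target that dampens the Wnt response, had the smallest coefficient of variation of the 7 genes at the early stage, 17.8% in normal and 27.2% in diabetic embryos. Early normal embryos ran from 85.2 over 148 to 189 and early diabetic embryos from 103 over 158 to 238, of which 6 of 17 were above the highest normal embryo. Late normal embryos ran from 74.1 over 114 to 185 and late diabetic embryos from 58.5 over 115 to 152. The ranges of the later stage lay lower and nearly coincided between conditions. The condition difference was 0.27 early (SE 0.11, adjusted p = 0.176) and −0.07 late, or −0.05 without D24M15J. Sp5 fell from early to late by 0.35 in normal embryos (SE 0.12, adjusted p = 0.0412) and by 0.67 in diabetic embryos (SE 0.12, adjusted p = 2.92e-05), where the value without D24M15J was −0.65. The call in normal embryos was lost with no filter on low counts (adjusted p = 0.0798) and held with litter as a random block (−0.40, adjusted p = 0.0194). Its mean went from 148 at 5 to 95.4 at 9 somite pairs in normal pregnancies and from 187 to 93.2 in diabetic ones. Within normal embryos its slope of −0.15 per somite pair (SE 0.04, adjusted p = 0.0205) was the single one called, where 2.19% of all genes were called lower. Without D24M15J, Cdx1 was called there as well (−0.25, adjusted p = 0.0475).

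Cdx4, the X-linked Cdx gene, which acts with the others on axis length and Hox expression, gave the largest early difference between conditions. Early normal embryos ran from 67.5 over 160.2 to 236 normalized counts. Early diabetic embryos ran from 103 over 226 to 563, with 7 of 17 above the highest normal embryo and 12 above the normal median, so the ranges overlapped but the diabetic one reached higher. The difference was 0.63 log2 units (SE 0.20, 95% interval 0.22 to 1.04, unadjusted p = 0.00343), and its adjusted p of 0.0855 missed the threshold. It passed when litter D28M37 (0.73, adjusted p = 0.0409), N23M31 (0.67, 0.0495) or N24M21 (0.72, 0.0374) was left out, and among embryos of title number 28 alone (0.93, 0.0059). Many more of all genes were called in that subset than in the main fit, as given at the end. Litter means gave 0.50 with p = 0.0682 in the exact permutation test, and 6 of 9 diabetic litters were above the highest normal litter. Late normal embryos ran from 66.5 over 148 to 228, and late diabetic embryos from 0 over 139.6 to 242, or from 80.8 without D24M15J. The late difference was −0.16, or −0.058 without D24M15J. From early to late Cdx4 fell by 0.74 in diabetic embryos (SE 0.23, adjusted p = 0.0116) and by 0.63 without D24M15J, while the estimate in normal embryos was 0.04 and uncalled. This call was lost without litter D28M23 (−0.59, adjusted p = 0.0677) and with litter as a random block (−1.04, adjusted p = 0.0631). The interaction was −0.78 (SE 0.33, adjusted p = 0.111), or −0.68 without D24M15J (adjusted p = 0.0891).

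Cdx2, the Cdx gene needed for trophoblast and for posterior growth, was not called in any comparison of embryos. Its early ranges were 34.3 to 177 in normal and 48.0 to 216 in diabetic embryos, with medians of 93.3 and 104. The late ranges were 39.6 to 128 and 2.28 to 136, with medians of 87.5 and 89.5. These groups overlapped almost entirely, apart from D24M15J at the bottom. Differences between conditions were 0.30 early (adjusted p = 0.308) and 0.01 late (SE 0.22), and between stages −0.17 in normal and −0.45 in diabetic embryos (adjusted p = 0.0858). Without D24M15J the late difference was 0.11 and the stage difference in diabetic embryos −0.35 (adjusted p = 0.119).

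T, which marks the primitive streak, tailbud and notochord and drives mesoderm formation, had the slope over the stages nearest to 0. Early embryos ran from 36.8 over 106 to 162 in normal and from 71.5 over 130.2 to 201 in diabetic pregnancies. Late embryos ran from 71.1 over 118 to 156 and from 9.87 over 128 to 174. The groups overlapped at either stage, with D24M15J as the lowest value. The condition differences were 0.26 early (SE 0.15, adjusted p = 0.302) and 0.04 late, and the stage differences 0.06 in normal and −0.15 in diabetic embryos. Without D24M15J the late condition difference was 0.13 and the stage difference in diabetic embryos −0.05.

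Evx1, a homeobox gene of the streak and tailbud, was alike in both conditions at the early stage. Normal embryos ran from 28.6 over 124 to 199 and diabetic embryos from 60.7 over 142 to 196, and no diabetic embryo lay outside the normal range. The difference was −0.0044 log2 units with a 95% interval of −0.37 to 0.36. At the later stage they ran from 49.0 over 110.7 to 161 and from 7.60 over 109 to 146, with a difference of −0.14, or −0.045 without D24M15J. The stage differences were −0.27 in normal and −0.39 in diabetic embryos, the latter −0.29 without D24M15J. Evx1os gave 2146 embryo counts against 8561 for Evx1, and was not called in any of these comparisons.

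Viewed together, 0 of the 7 members were called between conditions at 5 or 6 somite pairs by edgeR, where 1.46% of all genes were, and 0 at 7 to 9, where 9.09% were. DESeq2 also called 0 at either stage. At an unadjusted p below 0.05 in edgeR there were 3 members early (Cdx4, Nkx1-2 and Sp5), against 21% of all genes, and 1 late (Cdx1), against 27.4% of all genes. The early estimates were positive for 6 of 7 members with a median of 0.27, against 0.004 over all genes, and the late median was −0.14, or −0.05 without D24M15J. Between stages, 2 of 7 members were called lower in normal embryos (Cdx1 and Sp5, background 7.85%) and 4 of 7 in diabetic embryos (Cdx1, Nkx1-2, Sp5 and Cdx4, background 15.6%). Beside this, the summed heart markers, a list chosen after values were seen, went from a median of 500 to 928 CPM in diabetic embryos and from 668 to 699.6 CPM in normal ones, and their part in the stage differences was not tested. The calls in normal embryos were near the threshold. Both ended when any 1 of the litters D28M02, D28M31, N23M31, N24M21, N24M29, N28M06, N28M07, N28M22, N28M25 and N28M30 was left out, with adjusted p of up to 0.127 for Cdx1 and 0.150 for Sp5. The Cdx1 call ended also without N28M03 (adjusted p = 0.0618), and that of Sp5 without D24M15 (0.0579), without D28M37 (0.0555) and without embryo D24M15J (0.05004). All 7 interaction estimates were negative, none was called, and 8.7% of all genes were, or 8.85% without D24M15J. Within diabetic embryos the slopes of Cdx1 (−0.53), Nkx1-2 (−0.34), Cdx4 (−0.27) and Sp5 (−0.26) were called, and without D24M15J (−0.50, −0.31, −0.23 and −0.26) as well, with 13.8% of all genes called lower, and litter as a random block ended the call of Cdx4 (−0.35, adjusted p = 0.088). No difference of slopes between conditions was called among the members, against 1.81% of all genes. The smallest adjusted p there was 0.122 (Nkx1-2, −0.25), and 0.12 without D24M15J (−0.22). The condition differences, the stage differences and the interaction are made from the same embryos and are not independent of each other. The fits treat embryos as separate samples, while the correlation of littermates over all genes was estimated at 0.191.

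**Figure D3:**
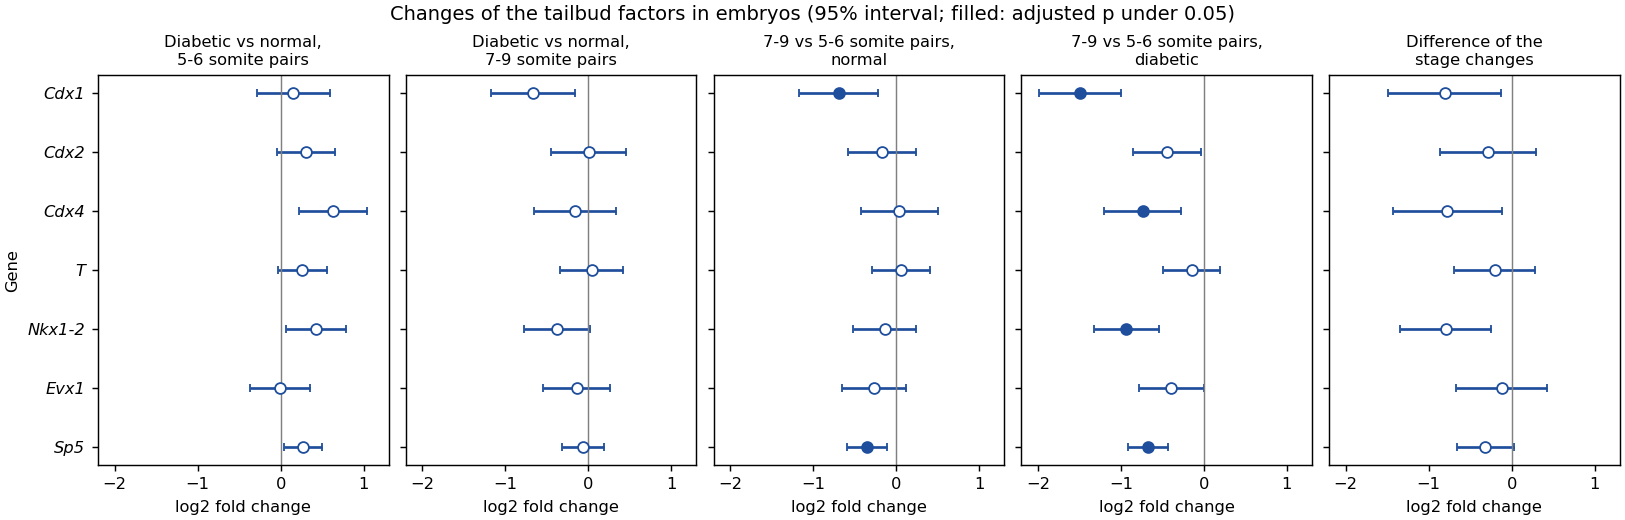
Fitted log2 differences of the 7 members with 95% intervals in 5 comparisons of embryos, with filled symbols where the adjusted p was below 0.05. Filled symbols stand for Cdx1 and Sp5 between stages in normal embryos and for Cdx1, Nkx1-2, Sp5 and Cdx4 in diabetic embryos.

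Members next to each other in the order of mean level were mostly not told apart. Of 24 such pairs in the orders of the 4 groups, 1 differed beyond its spread in paired sign-flip permutation tests, and pairs farther apart in the order were not tested. Signs were flipped per embryo, although 7 of the 16 late diabetic embryos came from litter D24M15, and orders were not tested by litter. In late diabetic embryos Nkx1-2 (79.7 ± 30.6, SD, n = 16) exceeded Cdx1 (59.8 ± 33.2) in 15 of 16 embryos, by 0.56 log2 units with an adjusted p of 0.00312, and by 0.59 without D24M15J (adjusted p = 0.00552). Cdx1 had the highest mean of the 7 genes in early normal embryos (154 ± 53.2, n = 17) and the lowest in late diabetic embryos. Cdx4 led in the other 3 groups, with 224 ± 113 (n = 17) in early diabetic embryos. Cdx2 was the lowest in 3 of the 4 groups.

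The members varied together among embryos of the same condition and stage group. These groups pool embryos of different somite numbers, and somite number was not subtracted. Cdx1, Nkx1-2 and Sp5 had called negative slopes per somite pair, and the part of somite number in the correlations was not tested. After subtraction of group means, all 21 pairs had a positive Pearson r over the 66 embryos, from 0.17 to 0.83 with a median of 0.70. By permutation, 20 pairs passed after adjustment over the 21 (18 by Spearman's rho). Taking deviations from the means of each litter at each stage instead gave 0.22 to 0.88. Litters with only a single embryo at a stage were left out there. D24M15J was kept, and the litter values were not computed without it. Much of the range from group means rested on embryo D24M15J, since without it r ran from 0.05 to 0.79 with a median of 0.53, and 17 pairs passed by r as by rho. Cdx1 and Nkx1-2 were the closest pair, with r = 0.83 and rho = 0.84, the permutation p of both being the smallest that 100000 resamples can give (adjusted p = 1.75e-05 for r). Its r was 0.76 and 0.79 in normal and 0.88 and 0.83 in diabetic embryos, early and late, and was 0.83 without the 2 embryos farthest from the median of Cdx1, and 0.79 without D24M15J. Without D24M15J every pair that did not include Sp5 had a lower r, and every pair with Sp5 a higher one. Among the former, Cdx1 and Cdx4 went from 0.39 to 0.05 and Cdx2 and Cdx4 from 0.71 to 0.22. Cdx4 and Nkx1-2 went from 0.58 to 0.14, and Cdx2 and T from 0.77 to 0.53. Among the latter, Cdx2 and Sp5 went from 0.43 to 0.59. Cdx4 and Sp5 had the lowest value over all embryos (0.17, adjusted p = 0.212), and 0.22 without D24M15J.

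**Figure D4:**
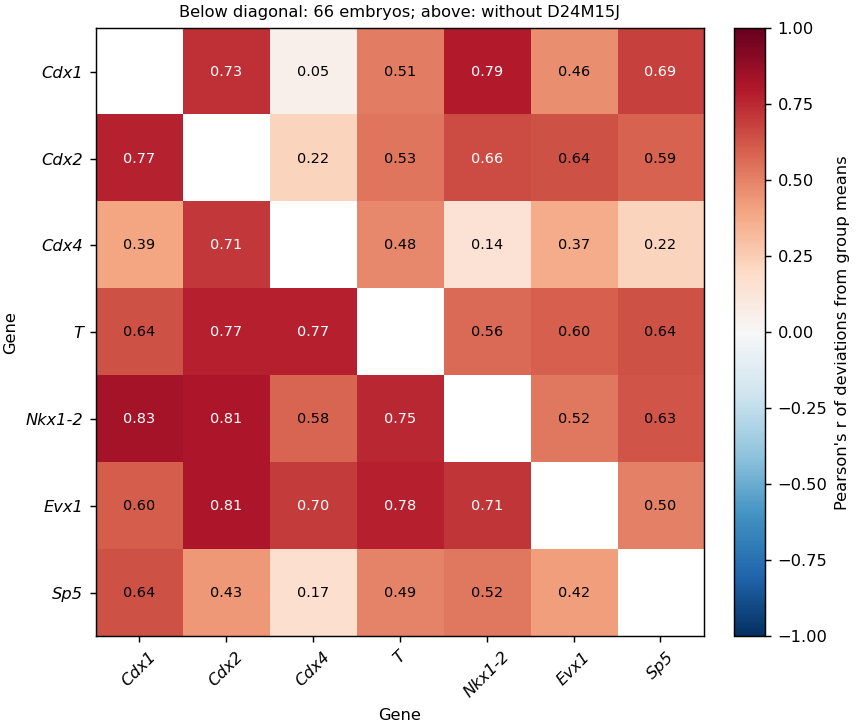
Pearson r between members over embryos, from deviations of log2 normalized counts from group means, below the diagonal for 66 embryos and above it for the 65 without D24M15J. Cdx1 and Nkx1-2 are at 0.83 and 0.79. Pairs without Sp5 are paler above the diagonal, with Cdx1 and Cdx4 at 0.05, and pairs with Sp5 are darker there, with Cdx4 and Sp5 at 0.22.

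Among 10743 genes, those with the most similar pattern over the 65 embryos other than D24M15J are given as a description. For Cdx1 they were Grsf1 (r = 0.86) and Fzd10, a Wnt receptor (0.80), before Nkx1-2. Among the genes nearest to Nkx1-2 were Cdx1 (0.79) and Fzd10 (0.68). Evx1 went with Hoxb8 (0.72), Tbx6 and Dll3 (both 0.71), of which Tbx6 and Dll3 act in presomitic mesoderm. T went with Sp5 (0.64), Tbx6 (0.62) and Sall4 (0.60), and Sp5 with Sall4 (0.72), Cdx1 (0.69) and Dnmt3b (0.64). Cdx2 went with Cdx1 (0.73), Epha1 (0.71) and Etv4, an FGF target (0.70). Of named genes, Cdx4 had Ddx42 (0.74) and Hoxb9 (0.73). With D24M15J included, Hox genes led for Cdx4 (Hoxb9 0.91, Hoxc6 0.86, Hoxc8 0.86) and Hoxb8 and Hes7 for Cdx2 (both 0.84).

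Genes that signal to or act beside the members were given by lists of 10 tailbud signals, 12 posterior Hox genes, Wnt feedback genes, presomitic genes and others. Between conditions none of them was called at 5 or 6 somite pairs, where 1.46% of all genes were. At 7 to 9 somite pairs Wnt5a, a ligand of axis elongation, was lower in diabetic embryos (−0.41, adjusted p = 0.027) and so was Lef1, the Wnt effector (−0.41, adjusted p = 0.029). They were also called without D24M15J (−0.36 and −0.38), as 1 of 7 tailbud signals and 1 of 8 Wnt feedback genes tested. No gene of the other lists was called in that fit. Of all genes, 9.09% were called late with all embryos, and most of these calls were lost with counts summed per litter. Values of the 2 genes with litters as the unit are not given. The interaction with stage was called for Wnt5a (−0.65), Lef1 (−0.76) and Cyp26a1 (−0.68), the enzyme that removes retinoic acid from the tailbud, with and without D24M15J. Of all genes 8.7% were called in the interaction, or 8.85% without that embryo. None of the 10 posterior Hox genes tested was called there.

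Over the somite stages, of 10 posterior Hox genes tested, 4 rose per somite pair and none fell, where 12.4% of all genes were called higher. Their median slope was 0.125, with −0.13 for the members, of which 3 fell, and −0.0021 for all genes, and no test compared the lists. Hoxc9 rose by 0.37 (adjusted p = 9.1e-07), Hoxa9 by 0.27, Hoxa7 by 0.17 and Hoxd8 by 0.17, and without D24M15J Hoxc8 and Hoxd9 joined them. Among the tailbud signals Wnt3a fell (−0.15), the Wnt ligand of the streak, while Gdf11 (0.18) and Fgf17 (0.26) rose. Of 8 Wnt feedback genes Notum (−0.26) and Dkk1 (−0.18) fell and Nkd1 (0.10) rose. Of 5 presomitic genes tested Lfng rose (0.13). Of 4 retinoic acid genes Rarg (−0.11) and Cyp26a1 (−0.10) fell, the latter not without D24M15J. In diabetic embryos Cyp26a1 was lower at the later stage by 0.68 log2 units. Of the listed neural genes Sox2 fell (−0.09 per somite pair), and Pax6 (0.20) and Irx3 (0.13) rose. Foxa2 (−0.13) and Nog (−0.08) of the notochord and node genes fell, as did Sox17 (−0.20) and Epcam (−0.11) of the endoderm genes. Tnfaip6 of the allantois list rose (0.14), and Amn of the visceral endoderm list fell (−0.29). Embryonic globins, markers of yolk sac blood, rose from the earlier to the later stage by 2.51 to 3.86 in normal and 3.88 to 5.11 log2 units in diabetic embryos, where 5.82% and 15.8% of all genes were called higher. Summed visceral endoderm markers ranged from 45.03 to 1572 CPM in embryos, and the part of such cells in the stage differences was not tested.

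A yolk sac was given the stage of the embryo that shares its code, although in 2 of the 66 concepti the sex labels of embryo and yolk sac differ. In visceral yolk sacs Cdx2 was the member found in every library. It was at 10.9 ± 3.38 CPM (SD, n = 66, range 5.82 to 20.7 CPM, 7 to 77 counts), 25.7% of its embryo level of 42.4 ± 17.0 CPM. The other 6 members were between 0.66% and 2.18% of the embryo level. Cdx1 was at 0 in 34 of 66 yolk sacs, Cdx4 in 36, T in 30, Nkx1-2 in 31, Sp5 in 16 and Evx1 in 14. All 7 were lower in yolk sacs at both stages, as were 39.7% of genes early and 42.6% late. For Cdx2 the difference was −1.77 (SE 0.12) early and −1.79 (SE 0.14) late, and for the others between −5.05 and −7.59. Without D24M15J all 7 were called late too, from −1.83 for Cdx2 to −7.63 for Cdx4. The same 7 were called with the conceptus as a replicate block. The lowest embryo was above the highest yolk sac for T (4.44 against 1.84 CPM) and Sp5 (24.8 against 3.69 CPM) when D24M15J was included, and overlapped for the rest. Without that embryo, Cdx4, Nkx1-2 and Evx1 were separate too, while Cdx1 (4.51 against 4.79 CPM) and Cdx2 (14.7 against 20.7 CPM) overlapped. The Cdx1 value of 4.79 CPM is that of the yolk sac of D24M15J itself, with 13 counts. Between diabetic and normal pregnancies Cdx2, the sole member that could be tested there, differed by 0.03 (SE 0.14, 95% interval −0.26 to 0.33) in early and −0.04 (SE 0.14, interval −0.33 to 0.25) in late yolk sacs. Of all yolk sac genes 0% and 0.0194% were called.

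By summed visceral endoderm genes the labelled tissues were separate. The 10 visceral endoderm genes summed to between 4580 and 18937 CPM in yolk sacs, above every embryo, and the 5 erythroid genes to between 2135 and 19781 CPM, where the highest embryo had 2291 CPM. The 6 trophoblast genes, a lineage in which Cdx2 acts, summed to 14.7 to 513 CPM in yolk sacs and 3.42 to 32.3 CPM in embryos. Posterior Hox genes were present in yolk sacs at 31.3 to 126 CPM in sum, and presomitic genes at 0.67 to 8.64 CPM. Which of these cells carried the yolk sac Cdx2 was not tested. Heart markers, a list chosen after values were seen, overlapped between tissues. They reached 595 CPM in early normal yolk sacs (median 34.9) and 355 CPM in early diabetic ones (median 22.1). Early normal embryos ran from 298 to 954 CPM. Neural genes summed to at most 122 CPM in yolk sacs and at least 263 CPM in embryos. Forebrain and midbrain, hindbrain and somite sums in yolk sacs were below every embryo too. Whether embryo tissue was in yolk sac libraries was not tested.

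**Figure D5:**
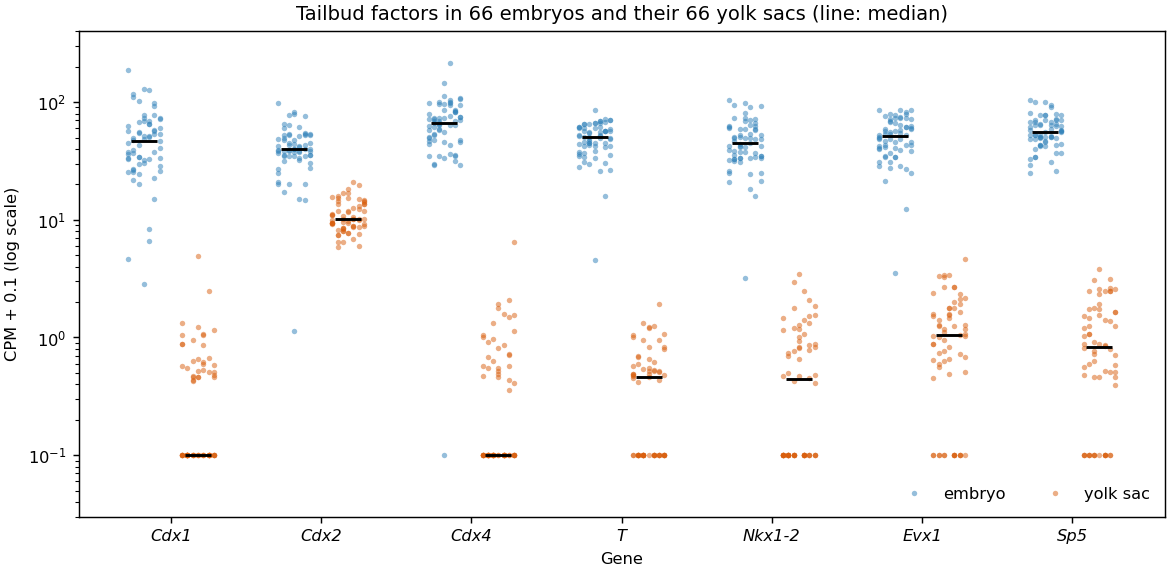
CPM (plus 0.1, log scale) of each member in 66 embryos and 66 yolk sacs, with a point per library and a line at the median. Yolk sac medians lie far below those of embryos for 6 members, while Cdx2 in yolk sacs spans 5.82 to 20.7 CPM.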

How the data were processed

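RNA was sequenced from 3′ tag libraries with unique molecular identifiers (QuantSeq FWD). The authors deposited UMI counts per gene without normalization, and the submitters' processing notes name STAR, HTSeq and mm10. Versions, and whether strand was used in counting, are not given in the sources used here. Of 136 libraries, 4 repeats of embryos and yolk sacs were left out. Groups follow tissue, somite number and maternal condition in the labels, and the stage of a yolk sac is that of the embryo with the same conceptus code.

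Genes were tested with edgeR 4.0.16 (R 4.3.3; TMM, filterByExpr with a minimum count of 10, quasi-likelihood test, Benjamini-Hochberg adjustment over all genes), with code tested on simulated data. Each condition comparison used 1 tissue and stage, and stage effects, their interaction and slopes per somite pair were fitted over all 66 embryos. Normalized counts used size factors of DESeq2 1.42.0. Litter means, member orders and correlations were tested on log2(normalized count + 1) by two-sided permutation, exact for litters (92378 assignments early and 1716 late) and otherwise with 100000 resamples. All confidence intervals of fold changes are at 95% and come from the fit.

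The members and lists were chosen with earlier results of these data known. The named genes are all 7 members and, from each list and comparison, up to 4 genes called, by adjusted p. Genes of the most similar pattern, of which 1 is not reported here, the values of embryo D24M15J and the lists of brain, heart and somite genes were added afterwards, as were fits without that embryo, slopes within each condition and fits of title number 28 alone.

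An embryo and a yolk sac with 1 code are labelled as the same conceptus, but in 2 of the 66 their sex labels differ. Their deviations from group means had a median correlation of 0.0990 early and 0.0434 late, and the fit with the conceptus as a replicate block gave the same 7 members at either stage.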

Additional observations from a re-analysis of the deposited data

Results flagged for a closer look

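Of 77 groups of 4 to 10 values, 5 held a value far from the others by Dixon's test at the 95% level, which chance does in about 1 of 20 groups. Cdx1 was highest in 1 of the 5 normal embryos with 9 somite pairs, at 128.5 normalized counts, with 75.2 in the next. T was highest in 1 of the same 5 embryos at 149 normalized counts, with 95.4 in the next. Cdx4 was at 242 normalized counts in 1 of the 4 diabetic embryos with 7 somite pairs and at 167 in the next. Evx1 was lowest in 1 of these 4, at 97.3 normalized counts, with 135 in the next. The Sp5 litter mean of the early diabetic litter D23M11, which has 1 embryo at that stage, was the highest of 9 at 7.85 on the log2 scale, with 7.50 in the next litter.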

How the results depend on the processing

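The larger changes in counts of members called came in these settings. Between conditions, 1 instead of 0 was called early among libraries of title number 28 only (Cdx4) and 1 instead of 0 late with title number as a covariate (Cdx1). In both settings the calls over all genes rose as well, as given below. Between stages in normal embryos, where 2 were called, 1 was called with DESeq2, 1 with litter as a random block, 1 without embryo D24M15J and 0 with no filter on low counts. The interaction had 1 instead of 0 with DESeq2 (Nkx1-2), and slopes within normal embryos 2 instead of 1 without D24M15J. Among smaller changes, litter as a random block ended the Cdx4 calls in diabetic embryos, both between stages and for the slope. Leaving out 1 litter at a time gave 0 to 1 members called between conditions early, 0 to 1 late, 0 to 2 between stages in normal and 3 to 4 in diabetic embryos, 0 to 1 for the interaction and 3 to 4 for the slope.

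Members whose estimate changed sign were uncalled in either case. Early between conditions, Cdx1 was −0.0053 with litter as a random block and −0.066 in title number 28 only, and Evx1 was 0.0030 with DESeq2, 0.0012 with RLE normalization and 0.034 with somite number as a covariate. Late between conditions, Cdx2 was −0.20 with the litter block and −0.031 in title number 28 only, and T was −0.073 with the litter block. The slope of T in normal embryos was 0.0053 with the litter block. Leaving out litters gave −0.13 to 0.071 for Evx1 early, −0.046 to 0.11 for Cdx2, −0.036 to 0.16 for T and −0.12 to 0.019 for Sp5 late, −0.076 to 0.15 for Cdx4 and −0.07 to 0.14 for T between stages in normal embryos, and −0.20 to 0.0067 for the Evx1 interaction. The cause of these shifts was not tested. Of the other values of single members, 1295 kept their direction and side of the threshold.

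Over all genes, the calls between conditions went from 161 early to 0 with counts summed per litter and 1753 in title number 28 only, and from 966 late to 8 with counts summed per litter and 1714 with title number as a covariate. With the conceptus as a replicate block the tissue comparison again called 7 members early and 7 late. With 16 or 17 embryos from 6 to 10 litters per group, standard errors of member differences between conditions lay between 0.11 and 0.25 log2 units.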
